A study of Rattus norvegicus with 8 samples.

Results

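The 10 genes described here encode the angiopoietins (Angpt1, Angpt2), the receptors of the TIE family (Tek, Tie1), ligands of the vascular endothelial growth factor (VEGF) family (Vegfa, Vegfb, Vegfc, Pgf) and the VEGF receptors Kdr and Flt1. They were measured in vessels of hypertensive and control rats. Members were the gene probes whose RefSeq transcript belongs to one of these genes, which gave 16 of 45598 probes and 10 of 24552 tests (1 per named gene, and 1 per probe without a name here). All 10 genes were well above background on all 8 arrays. RNA came from 4 hypertensive disease model rats and 4 control rats, all male, with 1 Cy3-labelled Agilent array per rat. Per the labels, controls were Wistar-Kyoto, a normotensive strain. The hypertensive rats carry that strain label too, although the series title sets the groups apart, so what strain they are is not settled here. The age of the rats and the vessel taken are not given in the sources used here, and no treatment is named.

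Angiopoietins and VEGFs are secreted ligands that act on receptor tyrosine kinases of endothelial cells. ANGPT1, made largely by cells around the endothelium, activates TEK (also called TIE2) and keeps vessels quiescent, while ANGPT2, stored and released by endothelial cells, often opposes it on the same receptor. VEGFA acts mainly through KDR, whereas FLT1 binds VEGFA, VEGFB and PGF, signals weakly and can act as a trap for ligand.

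Among the 10 genes, Angpt2 was the only one called, being lower in hypertensive vessels by a log2 change of -0.53 ± 0.10 (SE of the fit), or 1.44-fold. That call held in 9 of 17 alternative fits. Angpt1, Flt1 and Vegfb were higher on average, by less than the test could call, and Vegfa, Vegfc, Kdr, Tek, Tie1 and Pgf did not pass either. So 1 of 10 members was past an adjusted p under 0.05, against 4.53% of all tests (1.91% lower and 2.61% higher in hypertensive vessels). With 10 genes, 1 call is too few to set that share apart from the rest of the array. Adjusted p-values are from limma over all 24552 tests. The members' median log2 change was 0.11, against 0.04 over all tests. Groups did not overlap for 2 members, Angpt2 and Vegfb, against 13.6% of all tests. At an unadjusted p under 0.05, 3 members passed (Angpt2, Vegfb and Flt1), against 20.3% of all tests.

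**Figure D1:**
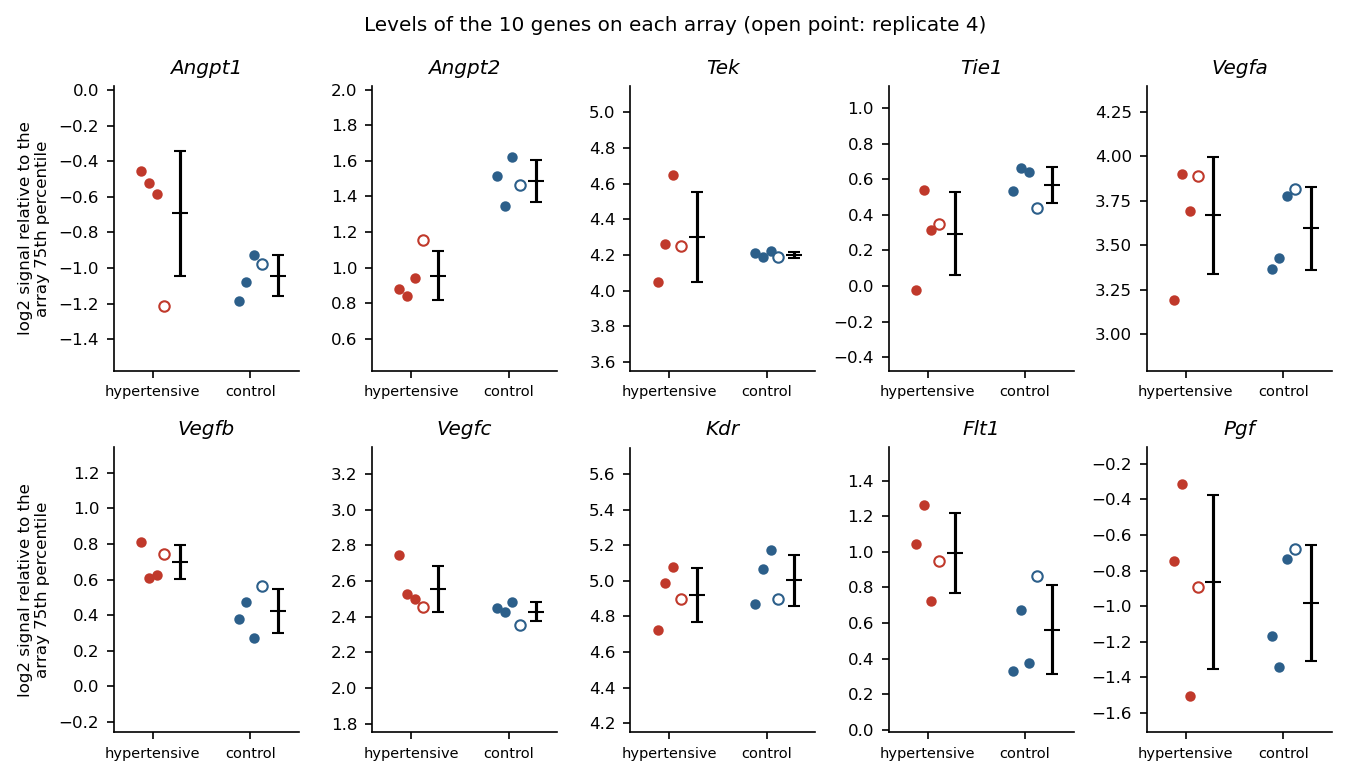
Levels of the 10 genes on each array, as log2 signal relative to the array's 75th percentile, with hypertensive vessels left of control vessels and the mean ± SD of 4 arrays as a bar. Every panel spans the same log2 distance, open points mark replicate 4 of each group, and the groups are apart for Angpt2 and Vegfb.

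Arrays were of like brightness, with a 75th percentile of 357 to 478 in hypertensive and 405 to 503 in control arrays (processed signal). All 8 arrays were on 1 slide, scanned once. Per the file headers hypertensive arrays lay in row 2 and control arrays in row 1, so slide row and group cannot be told apart. Hypertensive replicate 4 stood apart on the second principal component (score -44.6, with hypertensive replicates 1 to 3 at 2.0 to 24.9 and controls at -12.0 to 12.2). Its 5 tested adipocyte markers summed to 64.2 times the 75th percentile, where hypertensive replicates 1 to 3 had 13.9 to 18.4 and controls 15.7 to 26.3. All 6 smooth muscle markers and all 8 endothelial markers tested were above background on every array. A level is log2 signal relative to the 75th percentile throughout.

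Angpt2, the TEK ligand released by endothelial cells, had levels of 0.88, 0.84, 0.95 and 1.16 in hypertensive replicates 1 to 4, against 1.51, 1.35, 1.62 and 1.47 in control replicates 1 to 4. All 4 hypertensive levels were below all 4 control levels, and hypertensive replicate 4 was the nearest to the controls. The mean level was 0.96 ± 0.14 in hypertensive vessels and 1.49 ± 0.12 in control vessels (SD, n = 4 each), with a 95% interval of the log2 change of -0.76 to -0.30 and an adjusted p of 0.021. By p-value it was number 601 of 24552 tests. The call was lost without hypertensive replicate 1, 2 or 3 or control replicate 1, 3 or 4, where the adjusted p was 0.051 to 0.065 and the log2 change -0.54 to -0.49. It was 0.011 without hypertensive replicate 4 and 0.031 without control replicate 2. In bulk vessels, fewer endothelial cells and less Angpt2 RNA per cell cannot be told apart.

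None of the 8 endothelial markers tested was past the threshold, and their median log2 change was -0.09. Groups did not overlap for 2 of them, Cldn5 and Eng, both lower, against 13.6% of all tests. The endothelial markers summed to 103 to 142 times the 75th percentile in hypertensive arrays and 103 to 120 in control arrays. This sum adds linear signals, so Vwf, the brightest marker, weighs most in it (mean level 6.3 in hypertensive and 5.9 in control vessels). It is therefore not an even reading of the 8 markers. Cldn5, of endothelial tight junctions, had a log2 change of -0.43 ± 0.11 and Eng, encoding endoglin, -0.32 ± 0.09. Vwf, the von Willebrand factor gene, whose product is stored with ANGPT2, had 0.46 ± 0.17, and these 3 were named after their values were seen. The 3 genes whose profiles over the 8 arrays lay closest to that of Angpt2, of 11964 named genes compared, were Pla1a, Hpf1 and Cebpd. After each gene was centred on its own mean, their root mean square distances from Angpt2 were 0.05, 0.07 and 0.08 in log2 units. Pla1a encodes a phospholipase, Hpf1 a cofactor of poly(ADP-ribose) polymerases and Cebpd a transcription factor of the C/EBP family.

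Angpt1, the agonist of TEK, had levels of -0.46, -0.52, -0.59 and -1.21 in hypertensive replicates 1 to 4, against -1.19, -1.08, -0.93 and -0.98 in control replicates 1 to 4. Hypertensive replicates 1 to 3 were above all 4 controls, whereas hypertensive replicate 4 was the lowest array of all 8. The mean level was -0.69 ± 0.35 in hypertensive vessels and -1.04 ± 0.11 in control vessels (SD, n = 4 each). The log2 change of 0.35 (95% interval -0.03 to 0.72) was not past the threshold (adjusted p = 0.28). Without hypertensive replicate 4 it was 0.52 with an adjusted p of 0.020, the single alternative in which Angpt1 was called. That array is the one with the high adipocyte markers. The part of fat in the Angpt1 level was not tested.

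The difference between the Angpt2 and Angpt1 levels was formed on each array, since their products compete for TEK. It was 1.34, 1.36, 1.53 and 2.37 in hypertensive replicates 1 to 4, against 2.70, 2.43, 2.55 and 2.44 in control replicates 1 to 4. Each hypertensive value was below each control value, hypertensive replicate 4 by a narrow margin. The mean difference of levels was 1.65 ± 0.49 in hypertensive vessels and 2.53 ± 0.13 in control vessels (SD, n = 4 each), a change of -0.88. The two-sided exact permutation p was 0.0286, the smallest that 35 divisions of 8 arrays allow. Groups that do not overlap give this p, and 13.6% of all single tests had such groups. Angpt2 alone was among them, so the difference is not separate evidence. Without hypertensive replicate 4 the change was -1.12 (exact p = 0.0286), and without any 1 control array the exact p was 0.0571. Such a within-array ratio shows unequal change of the probes and not the amount of either transcript.

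**Figure D2:**
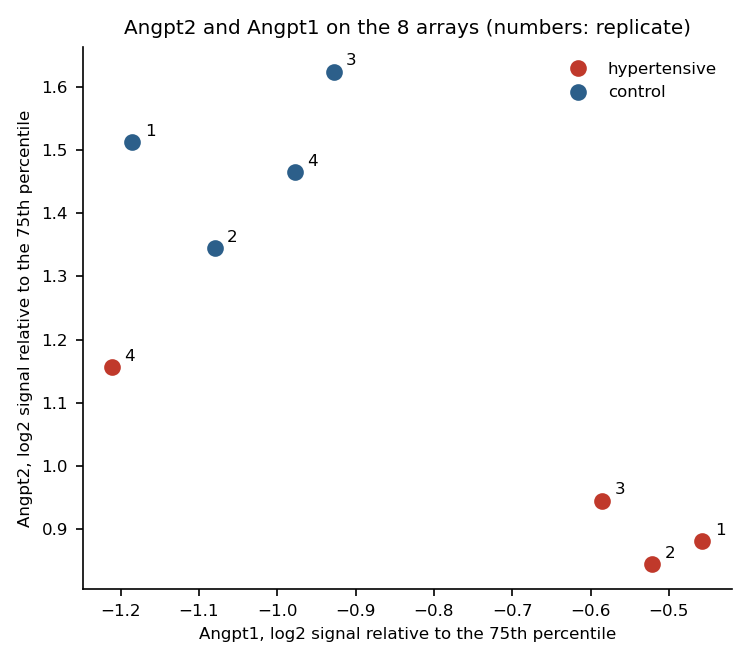
Level of Angpt2 (vertical) against Angpt1 (horizontal) on the 8 arrays, both as log2 signal relative to the 75th percentile, numbered by replicate. Hypertensive replicates 1 to 3 lie at lower Angpt2 and higher Angpt1 than the controls, and hypertensive replicate 4 has a lower Angpt2 level than the controls and an Angpt1 level of -1.21.

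Tek, the angiopoietin receptor, had levels of 4.05, 4.26, 4.65 and 4.25 in hypertensive replicates 1 to 4, against 4.21, 4.19, 4.22 and 4.19 in control replicates 1 to 4. The hypertensive levels lay on both sides of the controls, whose SD was 0.02, against 0.25 in hypertensive vessels. The log2 change was 0.10 (95% interval -0.18 to 0.38, adjusted p = 0.69), and it was -0.02 without hypertensive replicate 3. Tie1, an orphan receptor that pairs with TEK, had levels of -0.02, 0.54, 0.32 and 0.35 in hypertensive replicates 1 to 4, against 0.54, 0.66, 0.64 and 0.44 in control replicates 1 to 4. Hypertensive replicates 1, 3 and 4 were below all controls, while replicate 2 was among them. Tie1 had a log2 change of -0.27 (95% interval -0.56 to 0.01) and an adjusted p of 0.26.

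Vegfa, the main VEGF ligand and a hypoxia-induced gene, was read by 3 probes with log2 changes of 0.07, 0.005 and -0.07, none past the threshold. On its brightest probe the levels were 3.19, 3.90, 3.69 and 3.89 in hypertensive replicates 1 to 4, against 3.37, 3.43, 3.78 and 3.82 in control replicates 1 to 4. The groups overlapped across most of their range. The 95% interval of the log2 change was -0.34 to 0.48 (adjusted p = 0.86), so a change of either sign within it cannot be set aside, and the sign turned with median centring (-0.02).

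Vegfb, a ligand of FLT1, had levels of 0.81, 0.61, 0.62 and 0.74 in hypertensive replicates 1 to 4, against 0.38, 0.48, 0.27 and 0.56 in control replicates 1 to 4. Every hypertensive level was above every control level, with the lowest hypertensive and the highest control array close together. The mean level was 0.70 ± 0.10 in hypertensive vessels and 0.42 ± 0.13 in control vessels (SD, n = 4 each). Vegfb had a log2 change of 0.27 (95% interval 0.06 to 0.48) that was not past the threshold (adjusted p = 0.14). Its second probe gave 0.20 (adjusted p = 0.29), with overlap. In none of 17 alternatives was Vegfb past the threshold, with log2 changes of 0.19 to 0.32.

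Pgf, the placental growth factor gene and the other ligand specific to FLT1, was the most variable member. Its levels were -0.75, -0.32, -1.50 and -0.89 in hypertensive replicates 1 to 4, against -1.17, -1.34, -0.74 and -0.68 in control replicates 1 to 4. The groups overlapped, with SDs of 0.49 in hypertensive and 0.33 in control vessels, and Pgf had a log2 change of 0.12 (95% interval -0.46 to 0.69, adjusted p = 0.83). Vegfc, the ligand of FLT4 and a factor for lymphatic growth, had levels of 2.75, 2.53, 2.50 and 2.45 in hypertensive replicates 1 to 4, against 2.45, 2.43, 2.48 and 2.35 in control replicates 1 to 4. Hypertensive replicates 1, 2 and 3 were above all controls. Its log2 change was 0.13 (95% interval -0.07 to 0.33, adjusted p = 0.46).

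Kdr, the main signalling receptor for VEGFA, had levels of 4.72, 4.99, 5.08 and 4.90 in hypertensive replicates 1 to 4, against 4.87, 5.07, 5.17 and 4.90 in control replicates 1 to 4. The ranges overlapped, with hypertensive replicate 1 below all controls and control replicate 3 above all hypertensive arrays. The log2 change of Kdr was -0.08 (95% interval -0.33 to 0.16, adjusted p = 0.71). Flt1 was read by 4 probes, and on each of the 3 that were above background on all 8 arrays it was higher on average in hypertensive vessels. On its brightest probe the levels were 1.05, 1.26, 0.72 and 0.95 in hypertensive replicates 1 to 4, against 0.33, 0.68, 0.38 and 0.86 in control replicates 1 to 4. Hypertensive replicates 1, 2 and 4 were above all controls, and replicate 3 was within their range. That probe had a log2 change of 0.43 (95% interval 0.08 to 0.78, adjusted p = 0.16).

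The other Flt1 probes for the same transcript record gave log2 changes of 0.36 and 0.30 (adjusted p = 0.18 and 0.40, every kept probe tested). The remaining probe, named for another Flt1 record, was dim. Its levels were -4.20, -4.71, -4.01 and -4.34 in hypertensive replicates 1 to 4, against -5.17, -5.30, -5.18 and -4.90 in control replicates 1 to 4, without overlap. It was above background on 3 of 4 hypertensive and 2 of 4 control arrays. Its mean processed signal was 20.6 in hypertensive and 13.1 in control vessels. It passed the filter on dim probes only through the hypertensive arrays, where it is high, so its difference is a description without a test. The 4 probes share 1 gene and are not separate evidence.

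**Figure D3:**
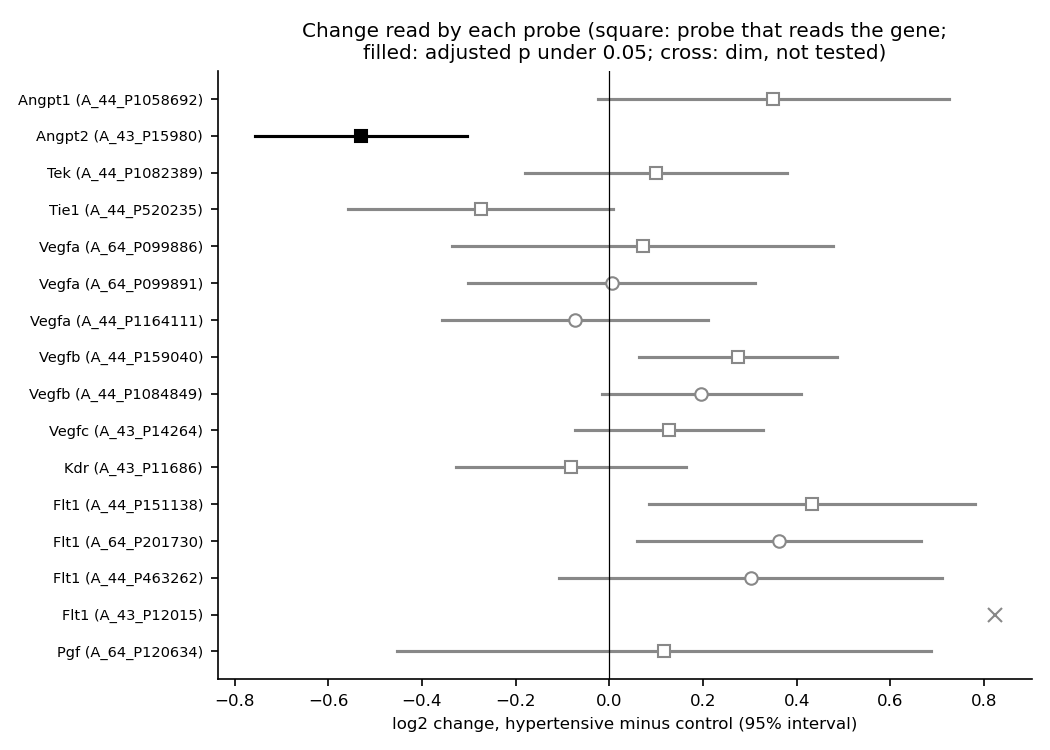
Log2 change (hypertensive minus control) with its 95% interval for each of the 16 probes, with squares for the probe that stands for its gene and filled symbols for an adjusted p under 0.05. The filled probe is that of Angpt2 (-0.53), and the cross without an interval is the dim Flt1 probe, whose difference is given without a test.

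Promoter sequence was matched by symbol for 7 of the 10 genes in RefSeq (build GRCr8); Angpt1, Angpt2 and Tek had no entry. The VEGFA receptors Flt1 and Kdr had log2 changes of 0.43 for Flt1 and -0.08 for Kdr, neither past the threshold. These 2 changes were not tested against each other, and their 95% intervals overlapped. Flt1 and Kdr were picked for these unlike readings. For each, the 250 bases before the start that the promoter table uses are shown. That start is not the first base of the RefSeq gene record: the Flt1 window lies inside the record's span, and the Kdr window runs past the record's first base. Both read 5′ to 3′ on the plus strand, Flt1 at chr12:12333180-12333429 and Kdr at chr14:32571813-32572062. Capitals mark GGAAG, a longer form of the ETS core GGAA, and the cAMP response element TGACGTCA on either strand.
Flt1: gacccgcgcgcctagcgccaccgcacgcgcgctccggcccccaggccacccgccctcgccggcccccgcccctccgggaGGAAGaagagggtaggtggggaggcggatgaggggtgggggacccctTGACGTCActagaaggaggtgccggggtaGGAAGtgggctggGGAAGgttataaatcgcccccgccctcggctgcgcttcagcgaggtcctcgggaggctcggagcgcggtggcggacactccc
Kdr: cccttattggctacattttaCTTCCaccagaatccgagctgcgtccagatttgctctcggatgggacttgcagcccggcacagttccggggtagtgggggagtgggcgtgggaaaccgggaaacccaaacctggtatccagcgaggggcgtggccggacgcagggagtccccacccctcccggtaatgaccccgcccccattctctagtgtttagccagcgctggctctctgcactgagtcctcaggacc
The Flt1 window held 3 copies of GGAAG, which begin 171, 95 and 82 bases before the start, and the Kdr window 1, as CTTCC, 230 bases before. GGAAG, a longer form of the core bound by ETS factors of endothelial cells, is in 63.3% of 33469 promoter windows of this length. The shorter core GGAA was not counted, and the Kdr window holds it in small letters too. The copies of GGAAG therefore do not compare the windows for ETS sites. TGACGTCA was found in the Flt1 window, 124 bases before the start, and in 1.6% of all windows. The hypoxia response core ACGTG was in neither window and in 16.6% of all. The motifs do not overlap, they were chosen after the sequences had been read, and a match is a description of letters only.

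Other genes of the same families and of their pathways were read from lists. Of 7 tested other family members and co-receptors, none was past the threshold (median log2 change 0.10). Vegfd, a second ligand of FLT4, had levels of -4.13, -3.90, -5.49 and -4.16 in hypertensive replicates 1 to 4, against -3.36, -2.81, -3.93 and -3.17 in control replicates 1 to 4. Vegfd was dim, with 3 of 4 hypertensive arrays above background, and its log2 change was -1.10 ± 0.36 (adjusted p = 0.13) and -0.22 with normexp. Angptl4, an inhibitor of lipoprotein lipase, differed by 1.34 ± 0.54 (adjusted p = 0.21). Flt4, the receptor of VEGFC and VEGFD, differed by -0.09 ± 0.12 (adjusted p = 0.71).

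Of 5 lymphatic endothelial markers tested, 2 fell and none rose, where 1.91% of all tests fell. Pdpn, encoding podoplanin, had levels of 2.04, 2.06, 2.28 and 2.19 in hypertensive replicates 1 to 4, against 3.21, 3.33, 3.21 and 3.19 in control replicates 1 to 4. Reln, encoding reelin, had levels of 3.12, 3.03, 3.29 and 3.13 in hypertensive replicates 1 to 4, against 3.85, 3.57, 3.89 and 3.75 in control replicates 1 to 4. For both, every hypertensive array was below every control array. The log2 change was -1.09 ± 0.08 for Pdpn (adjusted p = 0.00017) and -0.62 ± 0.10 for Reln (adjusted p = 0.0098), each past the threshold in 17 of 17 alternatives. These lymphatic genes, and the other 3 markers, were named after their values were seen. Pdpn and Reln are also made by cells other than lymphatic endothelium. Prox1, the transcription factor that defines lymphatic endothelium, differed by -0.17 ± 0.16 and Lyve1, a hyaluronan receptor, by -0.18 ± 0.16. Ccl21, a chemokine gene, differed by -0.90 ± 0.46, and none of these 3 was past the threshold. The 5 lymphatic markers summed to 70.7 to 113 times the 75th percentile in hypertensive arrays and 100 to 108 in control arrays, with none at background. In this sum of linear signals Prox1, the brightest marker, weighs most (mean level 6.1 in hypertensive and 6.3 in control vessels). Pdpn and Reln add little to it.

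Of 5 tested PDGF ligands and receptors, the relatives of the VEGFs that act on mural cells, none was past the threshold (median log2 change 0.06). Pdgfd differed by 0.59 ± 0.21 (adjusted p = 0.16) and Pdgfc by 0.25 ± 0.20 (adjusted p = 0.51). Of 20 genes of receptor signalling, 1 fell and none rose (median -0.11). That share is near the 4.53% of all tests called in either direction, and 1.91% of all tests fell. The gene that fell was Klf2, a flow-responsive endothelial transcription factor. Its levels were 0.64, 0.70, 0.76 and 1.11 in hypertensive replicates 1 to 4, against 1.35, 1.28, 1.19 and 1.33 in control replicates 1 to 4. The groups did not overlap, and the log2 change was -0.48 ± 0.11 (adjusted p = 0.047). The Klf2 call was lost without any 1 array other than hypertensive replicate 4, and without the filter on dim probes (0.12), with adjusted p up to 0.13 over 17 alternatives.

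Of 16 tested genes that VEGF induces in endothelial cells, 3 fell and none rose (median log2 change -0.07, against 0.04 over all tests), where 1.91% of all tests fell. They were Adamts1, a matrix protease gene, at -1.18 ± 0.22 (adjusted p = 0.020), and the orphan nuclear receptor genes Nr4a2 at -1.73 ± 0.36 (adjusted p = 0.033) and Nr4a1 at -2.03 ± 0.44 (adjusted p = 0.039). Nr4a1 had levels of 3.09, 3.79, 2.13 and 1.59 in hypertensive replicates 1 to 4, against 4.59, 4.36, 5.27 and 4.48 in control replicates 1 to 4. All 3 are also immediate early or stress-induced genes in many cell types. The list was chosen with earlier results of these data known, so its share of falls is a description without a test. The other 13 genes had log2 changes of -0.79 to 0.78, on both sides of 0. The call of Adamts1 was lost without hypertensive replicate 2 or 3 or control replicate 1. That of Nr4a2 was lost without hypertensive replicate 3 or 4 or control replicate 1 or 3, and that of Nr4a1 without any 1 array other than hypertensive replicates 2 and 4, with adjusted p up to 0.098 for these 3 genes over 17 alternatives. Without the filter on dim probes the calls of Nr4a1 (adjusted p = 0.082) and Nr4a2 (0.073) were lost too.

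**Figure D4:**
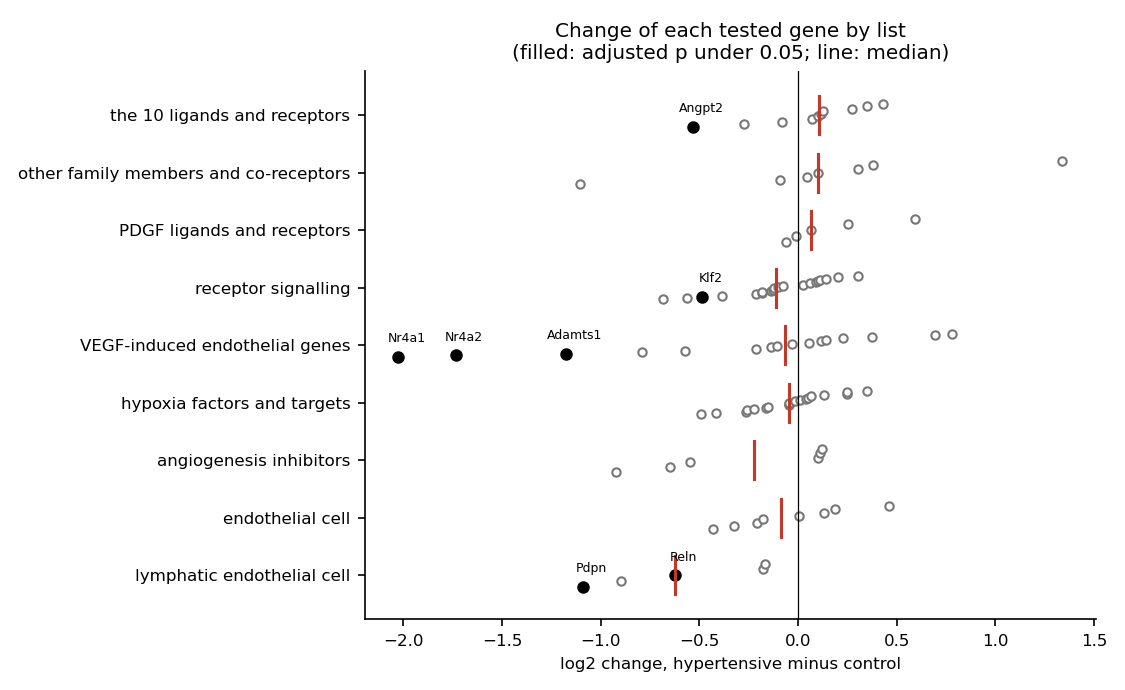
Log2 change (hypertensive minus control) of each tested gene in the 10 ligands and receptors, the 6 pathway lists and 2 marker lists, 1 row per list, with filled points for an adjusted p under 0.05 and a line at the list's median. Filled points are on the lower side in every row shown that has one. The skeletal muscle list, not shown, has a called gene on the higher side. Over all tests, 641 were called higher and 470 lower.

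Of 19 tested hypoxia factors and targets, which hold oxygen sensors and transcription factors as well as genes induced with Vegfa, none was past the threshold (median log2 change -0.05). Egln2, an oxygen-sensing prolyl hydroxylase gene, differed by -0.26 ± 0.07 (adjusted p = 0.091) and Vhl, which marks hypoxia-inducible factors for degradation, by 0.25 ± 0.07 (adjusted p = 0.095). Egln2 was past the threshold with normexp and with median centring (adjusted p = 0.046 in each). Of 6 tested angiogenesis inhibitors none was past the threshold either (median -0.22). Serpinf1, encoding pigment epithelium-derived factor, differed by -0.55 ± 0.16 (adjusted p = 0.099) and Thbs1, encoding thrombospondin, by -0.92 ± 0.32 (adjusted p = 0.15). With normexp Serpinf1 was past the threshold (-0.59, adjusted p = 0.03), and Thbs1 differed by -0.26.

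Among markers of the cells that make or bind these ligands, none of 6 pericyte and none of 6 smooth muscle markers was past the threshold. Pericyte markers summed to 52.9 to 66.9 times the 75th percentile in hypertensive arrays and 52.1 to 65.6 in control arrays, and smooth muscle markers to 297 to 422 in hypertensive and 276 to 381 in control arrays. Of 5 macrophage markers 1 fell, Mrc1 (adjusted p = 0.05 after rounding), where 1.91% of all tests fell, and their median log2 change was -0.49. Groups did not overlap for 3 of them, all lower, against 13.6% of all tests: Mrc1 at -0.51, Csf1r at -0.49 (adjusted p = 0.056) and Cd163 at -0.68 (adjusted p = 0.06), named after their values were seen. The macrophage sum was 5.9 to 8.0 in hypertensive and 7.34 to 8.92 in control arrays. None of 5 mast cell markers passed, but each was higher on average, with a median log2 change of 0.75. Groups did not overlap for 1 of them, Cma1, which was higher, against 13.6% of all tests. Cma1 differed by 0.82 (adjusted p = 0.092) and was named after its values were seen. The mast cell sum was 6.9 to 12.8 in hypertensive and 3.91 to 6.7 in control arrays, without overlap. None of 6 fibroblast and none of 5 adipocyte markers passed, and 1 of 4 skeletal muscle markers, Myh1 (named after its values were seen), rose, where 2.61% of all tests rose. Myh1 was dim, with mean levels of -2.84 in hypertensive and -5.11 in control vessels. It was above background on 3 of 4 control arrays. The fibroblast sum was 743 to 1480 in hypertensive and 925 to 1560 in control arrays, and the skeletal muscle sum 0.73 to 1.14 in hypertensive and 0.78 to 0.93 in control arrays. Each sum adds linear signals, so the brightest markers of a list weigh most in it. The part of these cells in the levels of the 10 genes was not tested.

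**Figure D5:**
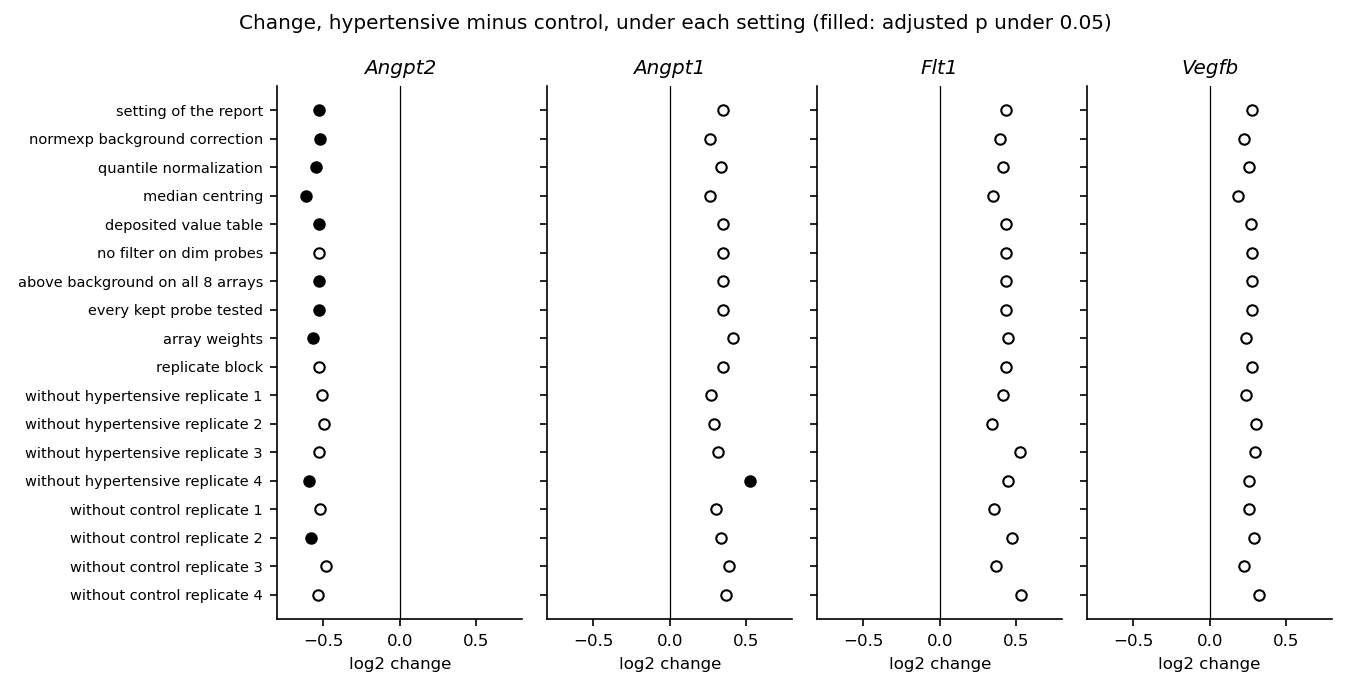
Log2 change (hypertensive minus control) of Angpt2, Angpt1, Flt1 and Vegfb under the setting of the report and 17 alternatives, 1 row each, filled for an adjusted p under 0.05. Angpt2 stays at -0.62 to -0.49 and is filled in 9 of the 17 alternatives, Angpt1 in 1, and Flt1 and Vegfb in 0.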

How the data were processed

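Total RNA was labelled with Cy3 and hybridised to Agilent rat arrays, per the labels' protocols. The deposited scanner files hold spot intensity values, background-subtracted by Agilent Feature Extraction (version 10.7.1.1 per the file headers, 12.1.1.1 per the submitters' processing notes). The deposited value table holds a linear ratio equal, for single-spot probes above 1, to the processed intensity over a constant near the array's 75th percentile (0 deviate by over 5%); its column medians were 0.101, 0.093, 0.097 and 0.090 in hypertensive replicates 1 to 4 and 0.092, 0.089, 0.086 and 0.091 in control replicates 1 to 4. It is linear and not centred on genes, has no direction of its own, and served as an alternative.

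Spots with an outlier flag (213 to 396 on an array) were dropped if their probe had others, spots of a probe were averaged as log2 values, and each array's 75th percentile was subtracted. Probes well above background on at least 3 of 4 arrays of a group were kept (27822). RefSeq accessions named 21229 of 45598 probes, and a gene was read by its brightest kept probe. Groups, taken from sample titles, were compared with limma 3.58.1 in R 4.3.3, adjusted by Benjamini-Hochberg at 0.05. The fit was tested on simulated data. Labels do not say beyond separate rats how samples were taken, and precision is limited by 4 arrays a group. Probe placement on a genome was not used here, and the only coordinates given are those of the Flt1 and Kdr promoter windows.

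Members and lists were chosen with earlier results of these data known. All 10 members are named. Of each pathway list, members past the threshold (at most 4) are named, otherwise the 2 with the smallest p. For a member past the threshold, the 3 nearest named profiles are given. Normexp used median spot signal, because the files have no mean signal column.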

Additional observations from a re-analysis of the deposited data

Results flagged for a closer look

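Dixon's test for 1 array far from the other 3 of its group flagged 3 of 68 groups of values checked, and chance flags about 1 in 20. Angpt1 was at -1.21 in hypertensive replicate 4, against -0.59 to -0.46 in the other hypertensive arrays. This is the array with the high adipocyte markers, and without it the log2 change of Angpt1 was 0.52. Vegfd was at -5.49 in hypertensive replicate 3, against -4.16 to -3.90 in the other hypertensive arrays, a dim probe near background. Pdgfd was at -1.47 in control replicate 1, against -1.89 to -1.86 in the other control arrays.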

How the results depend on the processing

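Of the 10 members, 7 kept their sign in all 17 alternatives. Angpt2 stayed lower at -0.62 to -0.49 and was past the threshold in 9. The count of members past the threshold was 0 without the filter on dim probes and 0 with the replicate block (adjusted p of Angpt2 0.064 and 0.058), and 0 to 2 with 1 array left out. The sign turned for Vegfa with median centring (-0.015) and with 1 array left out (-0.006 to 0.23), for Pgf (-0.066 to 0.329) and for Tek (-0.017 to 0.184), with none past the threshold, and the cause was not tested. The Angpt2 minus Angpt1 change was -1.119 to -0.776 with 1 array left out, with exact p of 0.0286 or 0.0571, and a paired exact test could not go below 0.125. Over all tests, 1111 passed (641 higher, 470 lower). The count was 1857 with normexp, 641 without the filter on dim probes, 675 with the replicate block, and 629 to 1473 with 1 array left out. The split was 529 higher and 586 lower with quantile normalization and 422 higher and 652 lower with median centring. Same-numbered replicates correlated at 0.206, 0.115, -0.004 and -0.148 across tests, and not every array correlated best with its own number, so the numbers were not taken as pairs. With the replicate block the calls of Adamts1 (adjusted p = 0.051), Nr4a2 (0.066), Klf2 (0.094) and Nr4a1 (0.096) were lost too, and Vegfd was past the threshold (0.026). The slide could not be used as a block, since there was 1. With normexp the log2 change was -0.22 for Vegfd and -0.26 for Thbs1, against -1.10 and -0.92.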
